A study of Mus musculus with 4 samples.

Results

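*Chil1*, *Lyz1*, *Lyz2*, *Retnla*, *Hc*, *Lcn2*, *Ccl20*, *Cxcl15* and *Il33* encode 9 proteins of airway and alveolar defence that are secreted or released by cells. They were found in the count table by gene symbol and make up 9 of its 45706 genes. The group was put together with knowledge of earlier results of the same comparison and its members were selected on their fall in mutant lungs, so their differences between genotypes are given here as a description. Where a call or an adjusted p of a member is printed, it shows only how a fit classed the gene and is no evidence for its fall. RNA was sequenced from the left lung lobe of C57BL/6 embryos at embryonic day (E) 17. *Myh10* encodes the heavy chain of non-muscle myosin IIB, and the mutants, called *Myh10*-/- below, were homozygous for the L458R missense allele found after ENU mutagenesis. The comparison holds 2 *Myh10*+/+ and 2 *Myh10*-/- lungs, each from a separate mouse, and no animal received a treatment. The L458R allele is present in every cell of the mutants, and whole lobes were used without sorting, so that fewer cells of a type and less RNA per cell cannot be told apart in these counts.

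The lining of the lung releases proteins that act on microbes before immune cells arrive. Lysozymes cut the peptidoglycan of bacterial walls, lipocalin 2 binds the siderophores with which bacteria collect iron, and complement C5, the product of *Hc*, is cleaved into a fragment that attracts leukocytes and one that begins the membrane attack complex. Chemokines such as CCL20 and CXCL15 recruit leukocytes, IL-33 alerts immune cells when the epithelium is damaged, and the chitinase-like protein CHIL1 and the resistin-like molecule RETNLA take part in tissue responses to parasites and injury.

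The members lie on 6 chromosomes of the GRCm38 assembly. *Ccl20* (ENSMUSG00000026166) occupies chr1:83116766-83119167 and *Chil1* (ENSMUSG00000064246) chr1:134182176-134190181, both on the plus strand. *Lcn2* (ENSMUSG00000026822) occupies chr2:32384633-32388252 and *Hc* (ENSMUSG00000026874) chr2:34983331-35061438, both on the minus strand. *Cxcl15* (ENSMUSG00000029375) lies at chr5:90794534-90803067, *Retnla* (ENSMUSG00000061100) at chr16:48842551-48844461 and *Il33* (ENSMUSG00000024810) at chr19:29925114-29960718, all on the plus strand. *Lyz2* (ENSMUSG00000069516) at chr10:117277331-117282321 and *Lyz1* (ENSMUSG00000069515) at chr10:117287797-117292868 are neighbours on the minus strand.

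The lysozyme genes are near-identical copies, and the bases in which they differ decide to which gene a read was assigned. Their coding sequences, each 444 bases long, differ at 22 bases and are 95% identical, with a longest identical run of 118 bases. The first 150 coding bases are shown from the GENCODE transcripts, with the 14 bases in which the genes differ in capitals.
Lyz1: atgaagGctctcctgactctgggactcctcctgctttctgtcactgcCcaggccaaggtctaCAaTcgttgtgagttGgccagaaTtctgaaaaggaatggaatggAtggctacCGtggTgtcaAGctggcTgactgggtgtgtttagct
Lyz2: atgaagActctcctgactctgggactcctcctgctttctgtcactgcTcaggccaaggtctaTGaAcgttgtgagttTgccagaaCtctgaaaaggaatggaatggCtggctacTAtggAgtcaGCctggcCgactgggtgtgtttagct
Of the windows of 75 bases, the read length, that can be laid along the transcripts, 74 occur in both genes, which is 6.22% of the windows of *Lyz1* and 5.96% of those of *Lyz2*. Reads aligned to several regions were left out of the counts, so reads from these windows should be missing from both genes. The counts of both are uncertain at least to that extent. Reads trimmed to under 75 bases fit more easily into identical stretches, and their loss was not estimated. The *Hc* counts carry a smaller doubt, because 76 of its exon bases overlap the antisense gene *Gm13449* and the strand setting of the counting is not given in the sources used here. The other 6 members share no window and no exon base with another annotated gene.

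The 9 genes spanned a wide range of expression. Levels between genes were compared per kilobase of exon, in CPM, which are counts scaled to a common library size with TMM factors. On that scale the means of the wild-type lungs ran from 210 for *Cxcl15*, 136 for *Lyz2* and 136 for *Retnla* through 41.0 for *Lyz1*, 16.5 for *Hc*, 7.80 for *Il33* and 6.39 for *Chil1* down to 1.79 for *Lcn2* and 0.689 for *Ccl20*. In that order *Lyz2* and *Retnla* did not differ beyond their spread in wild-type lungs, with 141 and 132 CPM per kilobase for *Lyz2* and 134 and 137 for *Retnla*. The order of the means was the same in mutant lungs, from 134 for *Cxcl15* to 0.0817 for *Ccl20*. *Lyz1* and *Hc* overlapped there, at 9.99 and 20.2 CPM per kilobase for *Lyz1* and 7.80 and 10.5 for *Hc*.

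All 9 genes were lower in both mutant lungs than in either wild-type lung. A gene was tested when its counts averaged 5 or more across the lungs, which 18763 genes did, and 24.3% of these lay lower in both mutant lungs in the same way. In the edgeR quasi-likelihood test all 9 had an adjusted p under 0.05 with a lower mutant level, against 1.34% of all genes tested that were called lower and 0.298% called higher. Because the members were picked from this contrast, nothing is read from these counts. The median log2 fold change of the 9 was -0.94, beside 0.00 for all genes tested.

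**Figure D1:**
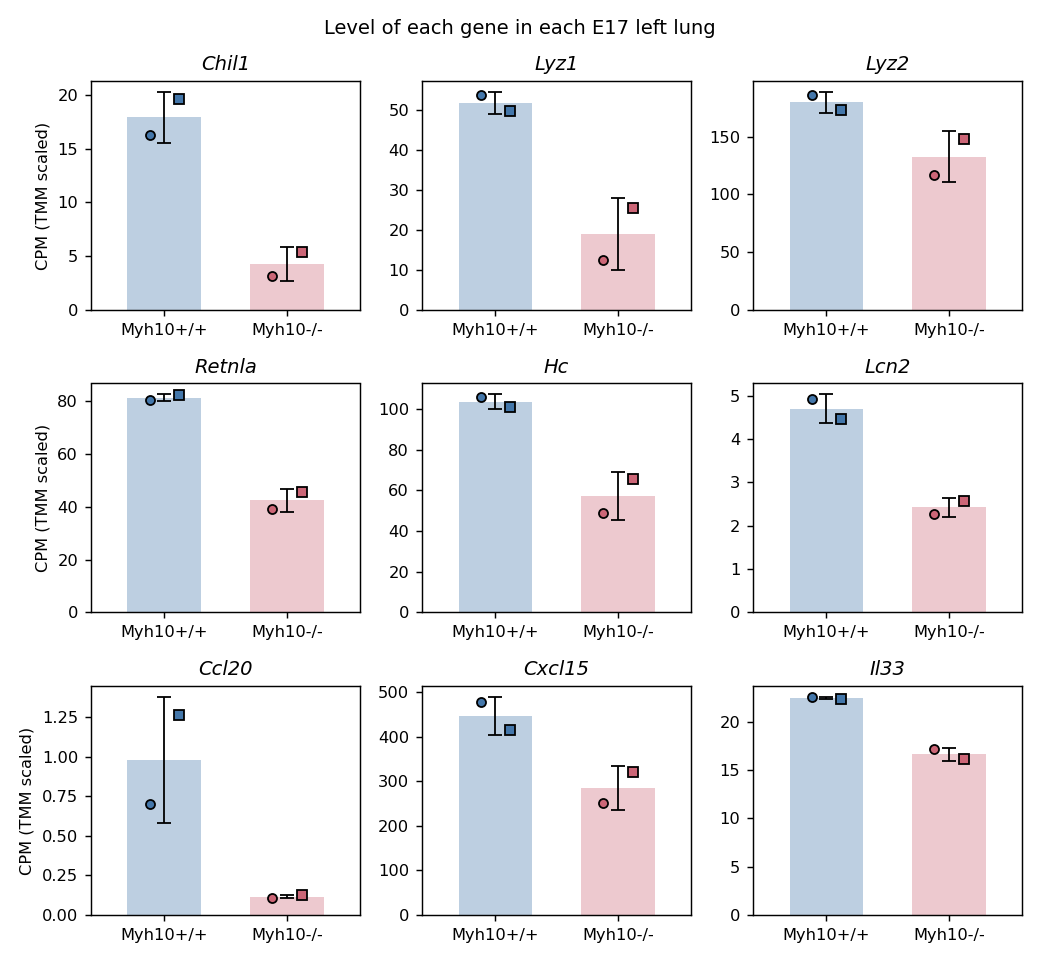
Level of each of the 9 genes in CPM scaled by TMM factors (y axes, each from 0) in *Myh10*+/+ and *Myh10*-/- E17 left lungs. Bars are means and whiskers the SD of 2 lungs, and the circle and square are replicates 1 and 2. In each panel both mutant lungs lie below both wild-type lungs.

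*Chil1*, which encodes a chitinase-like protein that binds chitin without cleaving it, was measured at 16.2 and 19.6 CPM in the wild-type lungs and at 3.16 and 5.38 CPM in the mutant lungs. The mean was 17.9 ± 2.37 CPM (SD, n = 2) in *Myh10*+/+ and 4.27 ± 1.56 CPM in *Myh10*-/-, which is 23.8% of the wild-type mean. Its fitted log2 fold change was -2.05 ± 0.18 (SE), the second largest fall by size among the 252 genes called lower. Its family members had few counts or were not called. Of 8 other chitinases and chitinase-like genes, 3 had enough counts to be tested and none was called in either direction, with a median log2 fold change of -0.00.

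The lysozymes were the next pair. *Lyz1*, which encodes the P form of lysozyme, lay at 53.8 and 49.8 CPM in wild-type lungs and at 12.6 and 25.4 CPM in mutant lungs. *Lyz2*, which encodes the M form and is expressed by macrophages as well as alveolar type 2 cells, lay at 186 and 173 CPM and at 117 and 148 CPM. The groups did not overlap for either gene, but the mutant lungs were farther apart than the wild-type lungs for both. The log2 fold change was -1.44 ± 0.21 for *Lyz1* and -0.44 ± 0.09 for *Lyz2*. With the counts of both genes summed it was -0.61.

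*Lyz1* and *Lyz2* thus did not fall in proportion. *Lyz1* made up 22.4% (95% exact binomial interval 21.3 to 23.6) of the 5493 lysozyme counts of the first wild-type lung and 22.3% (21.1 to 23.6) of the 4248 counts of the second. In the mutant lungs its share was 9.74% (8.79 to 10.8) of 3603 counts and 14.7% (13.7 to 15.6) of 5584 counts. The wild-type shares lay within each other's intervals, while each mutant share lay outside the intervals of all other lungs. The intervals cover counting error only, and the mutant lungs differed from each other by more than that error.

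**Figure D2:**
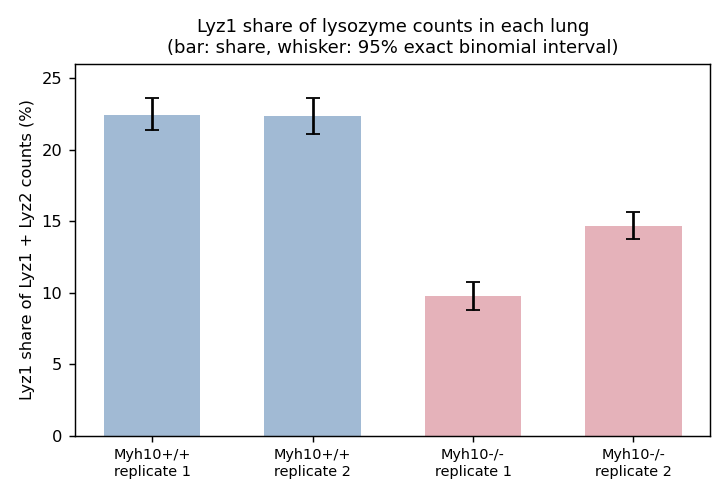
Share of *Lyz1* in the counts of *Lyz1* and *Lyz2* together (y axis, percent) in each of the 4 lungs. Bars are the measured shares and whiskers the 95% exact binomial intervals. The wild-type lungs stand at 22.4% and 22.3% and the mutant lungs at 9.74% and 14.7%.

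The sequence directly before the RefSeq start sites of the neighbours is also close. In the 120 bases before the RefSeq start site (GRCm38.p6, minus strand, chr10:117292869-117292988 for *Lyz1* and chr10:117282273-117282392 for *Lyz2*), 9 bases differ and 92.5% are identical. Bases farther upstream were not compared. As printed, in the direction of transcription, the *Lyz2* stretch begins outside the GENCODE span of the gene and its last part lies inside it. The upstream edge of that span is at 117282321. Whether the differing bases bear on the unequal fall of the pair was not tested. Both stretches of 120 bases are shown as the nearest upstream sequence, with the differing bases in capitals.
Lyz1 upstream: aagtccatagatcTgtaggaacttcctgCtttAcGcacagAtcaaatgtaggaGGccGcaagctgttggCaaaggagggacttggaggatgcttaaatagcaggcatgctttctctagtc
Lyz2 upstream: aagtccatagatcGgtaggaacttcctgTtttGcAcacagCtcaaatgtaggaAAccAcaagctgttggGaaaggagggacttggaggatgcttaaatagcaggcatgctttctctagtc

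*Retnla* and *Hc* fell to similar fractions. *Retnla*, a small cysteine-rich protein made by lung epithelium and by macrophages, was at 80.4 and 82.2 CPM in the wild-type lungs and at 39.4 and 45.6 CPM in the mutant lungs. The wild-type mean of 81.3 ± 1.29 CPM (SD, n = 2) compared with 42.5 ± 4.4 CPM, 52.3% of it, and the log2 fold change was -0.94 ± 0.08. Of 3 other resistin family genes only *Retnlg* had enough counts to be tested, and it was not called.

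*Hc*, the gene of complement C5, was at 106 and 101 CPM in wild-type and at 48.9 and 65.7 CPM in mutant lungs. Its mutant mean of 57.3 ± 11.9 CPM was 55.3% of the wild-type mean of 104 ± 3.55 CPM, with a log2 fold change of -0.85 ± 0.11. The complement system as a whole was measured broadly. Among 34 tested complement components and regulators, 1 was called lower and none higher, with a median log2 fold change of -0.02. The called gene was *C3*, the central component of the cascade, at 11.2 and 11.0 CPM in wild-type and 5.39 and 6.68 CPM in mutant lungs (log2 fold change -0.87 ± 0.13, edgeR adjusted p = 0.00984). The receptors of the C5a fragment were not called: *C5ar1* was at 2.88 and 3.36 CPM against 2.37 and 2.89 CPM (edgeR adjusted p = 0.628), and *C5ar2* at 0.960 and 0.525 CPM against 0.647 and 0.839 CPM (edgeR adjusted p = 0.987).

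*Lcn2* was expressed at a low level. It was at 4.93 and 4.46 CPM (113 and 85 counts) in the wild-type lungs and at 2.26 and 2.58 CPM (63 and 83 counts) in the mutant lungs, with a log2 fold change of -0.95 ± 0.19. The mutant mean of 2.42 ± 0.222 CPM was 51.5% of the wild-type mean. Of 6 other tested genes of iron-binding and siderophore defence, 2 were called lower and none higher. *Hp*, which encodes the haemoglobin-binding haptoglobin, went from 152 and 182 CPM to 87.8 and 113 CPM (log2 fold change -0.73 ± 0.10, edgeR adjusted p = 0.00897). *Trf*, which encodes the iron carrier transferrin, had a log2 fold change of -0.97 ± 0.19 (edgeR adjusted p = 0.0311), although the overlapping gene *Gm20425* holds 78.6% of its windows of 75 bases. *Slc22a17*, a receptor for lipocalin 2, was at 46.9 and 55.0 CPM in wild-type and 59.3 and 59.8 CPM in mutant lungs and was not called (edgeR adjusted p = 0.200).

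*Ccl20*, a chemokine that attracts CCR6-bearing lymphocytes and dendritic cells, had the largest fitted fall of the 252 genes called lower and the fewest counts of the 9. It had 16 and 24 counts in the wild-type lungs (0.698 and 1.26 CPM) and 3 and 4 counts in the mutant lungs (0.108 and 0.124 CPM). The fitted log2 fold change was -2.99 ± 0.53. Summed over lungs and scaled by library, 40 wild-type against 7 mutant counts gave a ratio of 8.17 with a 95% exact interval of 3.62 to 21.6, which covers counting error only. Transcripts of its receptor *Ccr6* were not detectable beyond 1 count in 1 mutant lung, where 3 counts stand for 0.0932 to 0.157 CPM across the 4 libraries.

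*Cxcl15*, a CXC chemokine known for its expression in lung epithelium, had the highest level of the 9 and was at 477 and 416 CPM in the wild-type lungs and at 251 and 320 CPM in the mutant lungs. Its log2 fold change was -0.64 ± 0.10 and its mutant mean of 286 ± 49.3 CPM was 64.0% of the wild-type mean of 446 ± 43.1 CPM. None of 34 other tested chemokines and chemokine receptors was called lower or higher, and their median log2 fold change was -0.09. Of the CXC receptors of neutrophils, *Cxcr1* had 0 counts in all 4 lungs and *Cxcr2* lay between 0.263 and 0.480 CPM (edgeR adjusted p = 0.846).

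*Il33* showed the smallest fitted change, next to *Lyz2*, and the tightest wild-type replicates. It was at 22.6 and 22.4 CPM in the wild-type lungs and at 17.1 and 16.2 CPM in the mutant lungs. The mean went from 22.5 ± 0.102 CPM to 16.7 ± 0.699 CPM (SD, n = 2), 74.0% of the wild-type value, with a log2 fold change of -0.44 ± 0.08. None of 14 tested IL-1 family and alarmin genes was called in either direction. The IL-33 receptor *Il1rl1* was at 2.14 and 1.68 CPM in wild-type and 2.26 and 2.39 CPM in mutant lungs (edgeR adjusted p = 0.603), and its partner *Il1rap* at 40.5 and 36.9 CPM against 42.6 and 38.9 CPM (edgeR adjusted p = 0.720).

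The fall was less even between mutant lungs than between wild-type lungs for most members. In 8 of the 9 genes the first mutant lung had the lower value, *Il33* being the exception, while 50.3% of all genes tested were lower in that lung. This order was not particular to the members. Marker sums described below were also lower in that lung for alveolar type 2 cells (6659 against 7798 CPM) and type 1 cells (2135 against 2497 CPM). The same held for club and goblet cells (618 against 775 CPM) and general epithelium (1482 against 1526 CPM). Sums for granulocytes, endothelium, mesenchyme and hepatocytes were higher in it. Without the first mutant lung the log2 fold change was -1.02 for *Lyz1*, -1.73 for *Chil1* and -0.28 for *Lyz2*. Without the second mutant lung it was -2.04 for *Lyz1*, -2.49 for *Chil1* and -0.62 for *Lyz2*. All 9 genes stayed lower with each lung left out in turn, which their lack of overlap between genotypes fixes in advance and which adds no support. *Xist*, the long RNA of the inactive X chromosome, was at 3916 CPM in the first wild-type and 4457 CPM in the second mutant lung and at 1.84 and 4.10 CPM in the other two, and the Y-linked *Ddx3y* had the reverse pattern. Within the lungs high in *Xist*, the log2 ratio of mutant to wild type was -1.08 for *Lyz1*, -1.59 for *Chil1* and -0.48 for *Il33*, and within those high in *Ddx3y* it was -1.98, -2.63 and -0.39. A difference by sex and a difference between single lungs cannot be told apart here.

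The call depended on the tool for several members. DESeq2's Wald test, with almost the same fold changes, called 4 of the 9 (*Retnla*, *Hc*, *Cxcl15* and *Il33*), gave no adjusted p for *Chil1*, *Lcn2* and *Ccl20*, which its filter on low counts removed, and did not call *Lyz1* (adjusted p = 0.0706) or *Lyz2* (adjusted p = 0.164). With that filter off it called *Chil1*, *Retnla*, *Hc* and *Ccl20*.

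**Figure D3:**
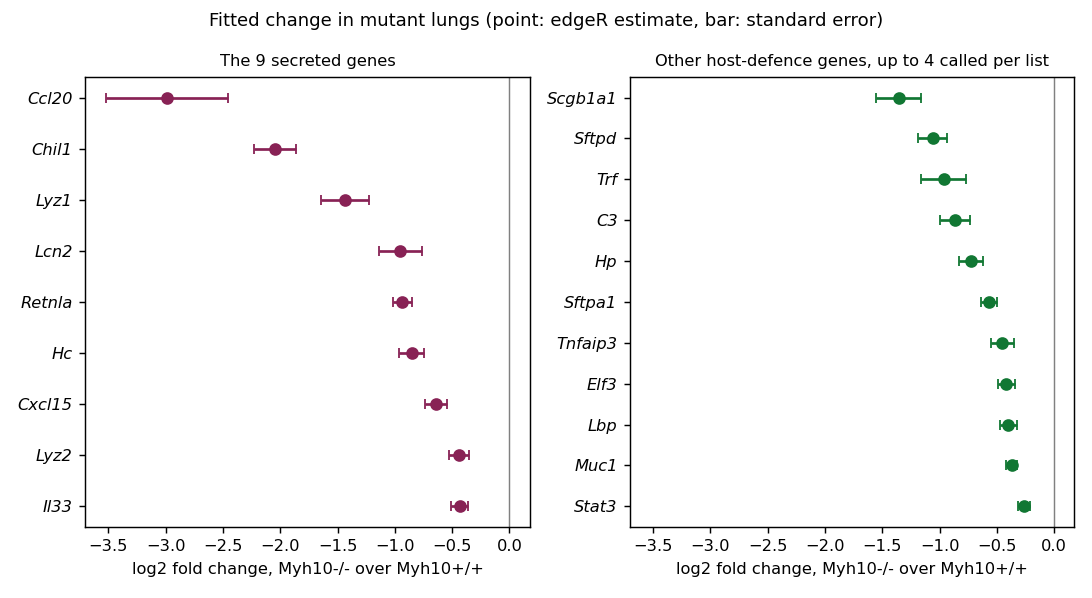
Fitted log2 fold change of *Myh10*-/- over *Myh10*+/+ lungs (x axis) for the 9 genes (left) and for the called genes of the host-defence lists, up to 4 per list (right). Points are edgeR estimates and bars their standard errors. The 9 genes range from -2.99 for *Ccl20* to -0.44 for *Il33*, and the called list genes all lie below 0.

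Beyond the receptors and paralogs already described, 2 broader lists held most of the other host-defence genes that fell. Over all lists, which hold 213 genes other than the 9, 161 had enough counts, 14 were called lower (8.70%, beside 1.34% of all genes tested) and none was called higher, with a median log2 fold change of -0.10. None being higher rests on the adjusted p of edgeR and also held in DESeq2, while 5 of the 161 were higher at an unadjusted p under 0.05. The lists were drawn up with earlier results of these data known, so their counts are no independent evidence of a direction.

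Mucosal secretory proteins gave 6 of these 14 genes, out of 23 tested, with a median log2 fold change of -0.37. *Sftpd*, a collectin that binds microbes in the surfactant layer, was at 45.8 and 50.5 CPM in wild-type and 19.1 and 26.9 CPM in mutant lungs (log2 fold change -1.06 ± 0.13, edgeR adjusted p = 0.00441). *Sftpa1*, a related collectin, went from 422 and 370 CPM to 250 and 284 CPM (-0.57 ± 0.07, edgeR adjusted p = 0.00592). The secretoglobin *Scgb1a1*, a club cell product, went from 53.0 and 58.6 CPM to 15.1 and 28.2 CPM (-1.36 ± 0.19, edgeR adjusted p = 0.00897), and the mucin *Muc1* from 242 and 226 CPM to 178 and 184 CPM (-0.37 ± 0.05, edgeR adjusted p = 0.00766).

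In the list of pattern recognition, NF-kB, IL-17 and C/EBP genes, 5 of 46 tested genes were called lower and the median log2 fold change was -0.10. *Elf3*, an epithelial transcription factor, fell by 0.42 on the log2 scale (edgeR adjusted p = 0.0196) and *Lbp*, which encodes the lipopolysaccharide-binding protein, fell by 0.40 (edgeR adjusted p = 0.0235). *Stat3*, which carries cytokine signals to the nucleus, fell by 0.26 (edgeR adjusted p = 0.0330), and *Tnfaip3*, an inhibitor of NF-kB signalling, fell by 0.45 (edgeR adjusted p = 0.0444). Parts of the exons of *Elf3* and *Stat3* overlap genes on the opposite strand.

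Most markers of distal and airway epithelium moved in the same direction as the 9 genes. The log2 fold change was below 0 for 9 of 10 alveolar type 2, 8 of 9 alveolar type 1 and 9 of 10 general epithelial markers. It was below 0 for all 7 tested club and goblet markers, and for 49.5% of all genes tested. Of all genes tested 1.34% were called lower. The type 1 marker *Igfbp2* lay higher in both mutant lungs and was not called. Of 10 tested alveolar type 2 markers 8 were called lower, and the summed level of all 10 was 9403 to 9909 CPM in wild-type and 6659 to 7798 CPM in mutant lungs. Most of that sum came from *Sftpc* and *Etv5*, which were not called. Among the called markers were the surfactant protein gene *Sftpb* (-0.48 ± 0.07, edgeR adjusted p = 0.00961), the lipid synthesis gene *Fasn* (-0.48 ± 0.05, edgeR adjusted p = 0.00360) and the protease gene *Napsa* (-0.42 ± 0.06, edgeR adjusted p = 0.00961). Of 9 alveolar type 1 markers 8 were called lower, with sums of 3085 to 3229 CPM against 2135 to 2497 CPM, *Aqp5* falling most among those named (-1.23 ± 0.18) beside *Rtkn2* (-0.63 ± 0.08), *Ager* (-0.58 ± 0.09) and *Clic5* (-0.50 ± 0.09). Of 7 tested club and goblet markers 3 were called lower (*Scgb1a1*, *Cyp2f2* and *Cbr2*), with sums of 890 to 1109.7 CPM against 618 to 775 CPM. Of 10 general epithelial markers 3 were called (*Krt8*, *Cdh1* and *Krt19*), with sums of 1682 to 1707 CPM against 1482 to 1526 CPM.

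Among other cell types the lists differed. The log2 fold change was below 0 for all 7 tested granulocyte and all 6 endothelial markers. Their medians were -0.57 and -0.13, beside -0.42 for alveolar type 2 markers. It was below 0 for 4 of 6 mesothelial, 8 of 15 macrophage and 3 of 6 mesenchymal markers. The same held for 1 of 6 tested mast cell and lymphoid and 4 of 5 tested hepatocyte markers. None of 15 macrophage and monocyte markers was called and their sums overlapped, at 394 to 428 CPM in wild-type and 393 to 420 CPM in mutant lungs. Of 7 tested granulocyte and myeloid precursor markers 1 was called lower, the calprotectin subunit *S100a9* (-0.55 ± 0.11, edgeR adjusted p = 0.0326), and the summed level of that list was 29.1 to 34.7 CPM against 21.8 to 23.6 CPM. Neutrophils also carry *Lcn2*. Of 6 endothelial markers 1 was called lower (*Cldn5*), with sums of 1356 to 1408 CPM against 1248 to 1277 CPM, and of 6 mesothelial markers 2 (*Msln* and *Krt19*), with sums of 575 to 609 CPM against 424 to 505 CPM. *Krt19* is also in the general epithelial list and is part of both sums. It was at 238 CPM in each wild-type lung and at 173 and 201 CPM in the mutant lungs. No marker of mesenchyme was called (sums of 4359 to 4506 CPM against 4288 to 4433 CPM), and neither was one of mast cells, basophils and lymphoid cells (28.4 to 30.4 CPM against 30.7 CPM in both mutant lungs) or of hepatocytes (6.46 to 11.4 CPM against 5.07 to 10.1 CPM). None of these lists held a gene at 0 counts in all lungs. The part of any of these cell types in the fall of the 9 genes was not tested.

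**Figure D4:**
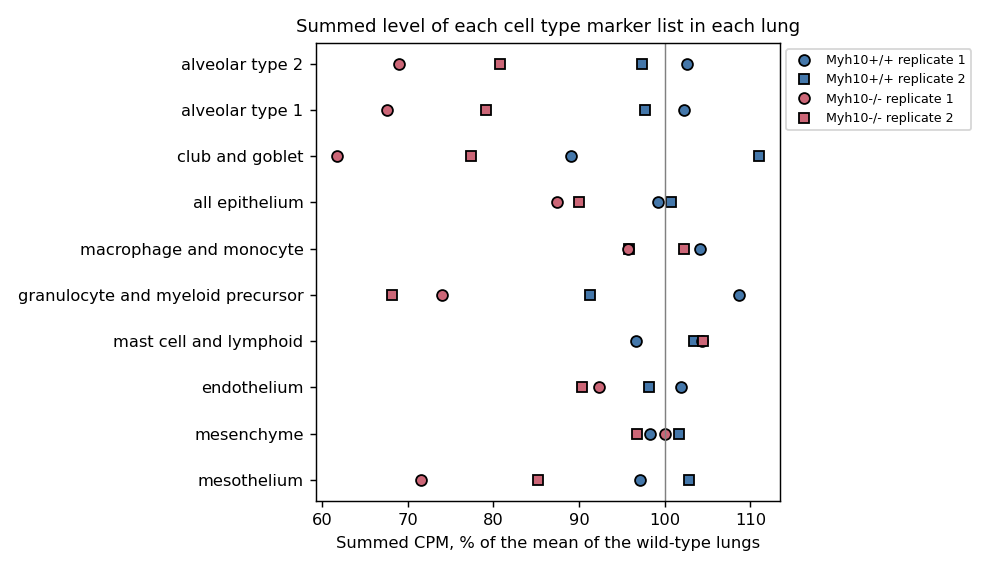
Summed CPM of each marker list in each lung, as a percentage of the mean of the wild-type lungs (x axis), for 10 lists of cell type markers (y axis; the hepatocyte list, the lowest in level, is left out). Blue points are *Myh10*+/+, red points *Myh10*-/-, circles replicate 1 and squares replicate 2. Both mutant lungs lie below both wild-type lungs for the alveolar, club and goblet, epithelial, granulocyte, endothelial and mesothelial lists, and the genotypes overlap for macrophages and mesenchyme.

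Each of the 9 genes was also set beside the alveolar type 2 markers of its own lung. Divided by the summed CPM of the 10 markers, 7 of the 9 remained lower in both mutant lungs than in both wild-type lungs. Most of that sum came from *Sftpc* and *Etv5*, so the scale does not weigh the markers equally. Because the marker sum is itself lower in mutant lungs, this scale shifts every gene upward, and of all genes tested 1.51% lay lower and 80.7% higher in both mutant lungs on it. The members were chosen from the same contrast, so nothing is read from their count. The log2 ratio of the group means on this scale was -2.67 for *Ccl20*, -1.68 for *Chil1*, -1.06 for *Lyz1*, -0.54 for *Lcn2*, -0.52 for *Retnla*, -0.45 for *Hc* and -0.23 for *Cxcl15*. *Lyz2* and *Il33* overlapped between genotypes on it, with ratios of -0.03 and -0.00. These genes also had the smallest falls in mean CPM. The order of the members was the same on both scales, so their overlap restates the size of their falls. This scale was added after the data had been seen and carries no test.

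**Figure D5:**
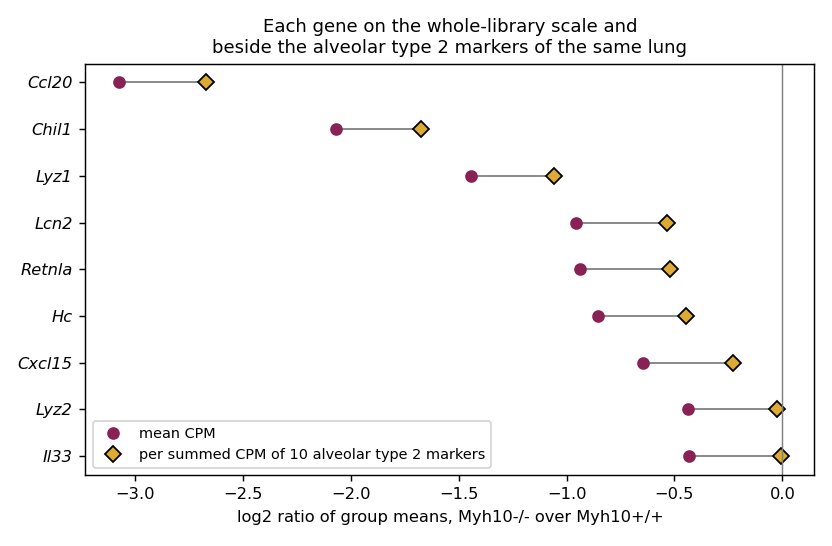
Log2 ratio of the group means, *Myh10*-/- over *Myh10*+/+ (x axis), for each of the 9 genes (y axis). Circles use mean CPM and diamonds the CPM divided by the summed CPM of 10 alveolar type 2 markers in the same lung. All 9 genes stay below 0 on the second scale, *Lyz2* and *Il33* only barely, at -0.03 and -0.00.

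Members resembled each other and a few further genes in their pattern over the 4 lungs. The likeness is the root-mean-square distance between log2 CPM values centred on their mean, over the 13955 genes that averaged 50 counts or more and had no lung at 0, and since it rests on 4 lungs it is a description only. *Retnla* and *Lcn2* lay closest to each other among the members (0.0636). The 3 nearest genes of *Retnla* were *C3* (0.0490), *Lcn2* and *Acoxl* (0.0670), and those of *Lcn2* were *Retnla*, *C3* (0.0703) and *Gnmt* (0.0875). *Hc* was nearest to *Gnmt* (0.0387), *C3* (0.0452) and *Spock2* (0.0585). *Lyz1* was nearest to *S100g* (0.0415), *Scgb1a1* (0.111) and *Aqp5* (0.130), while *Chil1* was nearest to the desaturase gene *Scd1* (0.256), *S100g* (0.330) and *Lyz1* (0.332). *Lyz2* was nearest to *Prr18* (0.00660), *Tinagl1* (0.0115) and *Cytip* (0.0151). *Cxcl15* was nearest to *Gprc5a* (0.0333), *Ncf1* (0.0368) and *Tmem71* (0.0431), and *Il33* to *Ryr2* (0.0130), *Ccdc170* (0.0157) and *Misp* (0.0195). *Lyz1* and *Lyz2* stood far apart on this measure (0.591), and *Chil1* and *Il33* stood farthest apart among the members compared (0.897). *Ccl20* had too few counts for it.

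The promoters were searched for the letters of 5 motifs on both strands, from 250 bases before to 50 after the RefSeq start site (GRCm38.p6), which gave 10 windows because *Il33* has 2 start sites. The C/EBP letters TTGCNNAA occurred in 4 of the 10, those of *Lcn2*, *Lyz1*, *Retnla* and the second start site of *Il33*, and in 10.8% of 32851 promoters. The stretches around them are shown as the letters found most often in the members, with the match in capitals, starting 216, 209, 134 and 85 bases before the start site.
Lcn2, chr2:32387918-32387985, minus strand: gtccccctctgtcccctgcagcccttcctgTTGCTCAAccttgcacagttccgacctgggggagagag
Lyz1, chr10:117293040-117293107, minus strand: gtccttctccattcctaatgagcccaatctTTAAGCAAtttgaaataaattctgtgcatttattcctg
Retnla, chr16:48842445-48842512, plus strand: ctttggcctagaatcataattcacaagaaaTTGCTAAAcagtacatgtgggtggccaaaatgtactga
Il33, chr19:29945675-29945742, plus strand: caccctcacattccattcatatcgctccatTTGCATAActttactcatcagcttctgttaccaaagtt
In *Lyz1* the match lies on the opposite strand, and the window of *Lyz2* did not hold these letters. The NF-kB letters GGGANNTTC were in none of the 10 windows and in 3.94% of all promoters, and the AP-1 letters TGANTCA in none and in 7.81%. The NKX2-1 letters CTCAAG were in 2, those of *Cxcl15* and *Retnla*, and in 15.9% of all promoters, and the FOXA letters TGTTTAC in 1, that of *Il33*, and in 3.65%. These matches describe the letters of the windows and not binding.

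The libraries held between 19116971 and 32055306 counts on genes. *Myh10* itself was at 505 and 504 CPM in wild-type and 539 and 513 CPM in mutant lungs, and since L458R is a missense change, its level does not check the genotype. Both pairs of replicates differed by more than counting error (chi-square per degree of freedom 7.47 for the wild-type and 12.6 for the mutant lungs).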

How the data were processed

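RNA-seq of 4 E17 left lung lobes was analysed, 2 *Myh10*+/+ and 2 *Myh10*-/-. The deposited table gives, for each lung, the unnormalized count of reads on every Ensembl gene. Per the paper's methods and the labels, the authors prepared stranded mRNA libraries, sequenced single ends of 75 bases, trimmed them (Reaper), mapped them to GRCm38 (STAR 2.4.0a) and counted them on exons (featureCounts 1.5.1), and a read with more than one region or gene was not counted. Such reads are missing from near-identical copies. The release of their gene annotation is not given in the sources used here. The members and lists were chosen with earlier results of these data known.

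Genes averaging 5 counts or more were tested with edgeR 4.0.16 in R 4.3.3 (TMM, quasi-likelihood test, robust = FALSE, Benjamini-Hochberg adjustment over all 18763 genes), a call being an adjusted p under 0.05. With 2 lungs per genotype, their number limits the precision. The script was checked on simulated counts. Alternatives were DESeq2 1.42.0 (size factors; Wald test), library totals, other filters, robust = TRUE, a replicate block, an adjusted p under 0.1, summed lysozyme counts and leaving out each lung. Those added later were a crossed block, DESeq2 without independent filtering and levels beside alveolar type 2 markers. Positions, exon lengths and windows came from GENCODE M21 (GRCm38), promoters from RefSeq (GRCm38.p6), where all 9 members matched. Genes were named as follows: all 9, listed receptors, up to 4 called genes per list with the lowest adjusted p, markers at 0, and the 3 most alike genes of each member with enough counts.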

Additional observations from a re-analysis of the deposited data

How the results depend on the processing

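All 9 genes kept a lower mutant level under every fit listed below. Because they were selected on this fall and did not overlap between genotypes, that direction adds no support. The number called, 9 with edgeR, was 4 with DESeq2's Wald test and 4 without its independent filtering, 8 with robust = TRUE, 7 to 9 with 1 lung left out, and 9 with the replicate block and with every other setting. Without the first wild-type lung *Lcn2* (adjusted p = 0.0916) and *Il33* (adjusted p = 0.0502) were not called, and without the second *Ccl20* and *Il33* (adjusted p = 0.0568 for both). The lung left alone in its genotype is then assumed to vary like the others. Robust = TRUE left out *Lyz1* (adjusted p = 0.365). The cause was not tested. The numbers called lower and higher, 252 and 56, were 688 and 474 with no filter, 473 and 223 at an adjusted p under 0.1 and, with 1 lung left out, 175 to 875 and 31 to 768, both highest without the second mutant lung. The number higher was 112 with library totals, 92 with DESeq2's Wald test and 135 with robust = TRUE. Of the other host-defence genes, 14 lower and 0 higher, 29 were lower with no filter, 8 with either DESeq2 setting and 11 to 29 with 1 lung left out, and 3 were higher with no filter, 2 at an adjusted p under 0.1, 1 each with library totals and robust = TRUE, and 0 to 3 with 1 lung left out.

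Lungs of the same number are not stated to be paired, and their deviations correlated at -0.297 (0.0114 without X and Y genes). With the replicate block 466 genes were lower and 244 higher, 9 members were lower, and 17 other host-defence genes were lower and 1 higher. A crossed block gave 320 lower and 95 higher.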
